A study of Mus musculus with 14 samples.

Results

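The genes that carry glucose into the cell and convert it to pyruvate and lactate were followed across 7 groups of mouse cells. The list held 10 genes: Slc2a1, Hk1, Hk2, Pfkl, Aldoa, Pgk1, Eno1, Pkm, Ldha, and Pdk1. They were chosen by name as the core of glycolysis and glucose uptake, with earlier results of these data known. By the gene symbols of the array's probe annotation, 9 of the 10 had a probe, with 10 probes in all among 25697 on the array. Of these genes, 8 had a probe above background on 7 or more of the 14 arrays and could be compared, out of 8470 genes that met the same rule.

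RNA of each group was hybridized to 2 Illumina bead arrays of the MouseRef-8 v2 type. iPS-NSCs #1 and iPS-NSCs #3 are lines of neural stem cells (NSCs) that were differentiated in culture from induced pluripotent stem cells (iPSCs). The iPSCs had been made from embryonic fibroblasts, heterozygous for the OG2 and ROSA26 transgenes, with retroviruses for Oct4, Sox2, Klf4, and c-Myc. OG2 expresses GFP from the Oct4 promoter and ROSA26 a lacZ and neomycin-resistance marker. iPS-cNSCs are NSCs from the brain of chimeric embryos of 13.5 days postcoitum (dpc), in which iPSCs had been aggregated with B6C3F1 embryos, and they were selected by their neomycin resistance. NED-NSCs are NSCs of the host embryo itself, from the same kind of chimeric brain, negative for X-gal staining and without the transgenes. ESCs are embryonic stem cells from blastocysts of 3.5 dpc, labelled OG2 heterozygous double transgenic, and MEFs are embryonic fibroblasts from ROSA26/OG2 double heterozygous fetuses of 13.5 dpc. Brain-NSCs, the control, came from the brain of ROSA26/OG2 double heterozygous fetuses of 13.5 dpc. NSCs were grown without serum in medium with EGF and bFGF, and ESCs in medium with serum, so medium and cell type cannot be told apart. The methods name NS-A as base of the expansion medium for brain-NSCs and another base for NSCs from iPSCs and chimeras. Base medium is thus also tied to the comparisons of these NSCs with brain-NSCs. NED-NSCs carry the B6C3F1 background of the host and lack the transgenes of the control.

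Glycolysis splits glucose into pyruvate in the cytosol and yields ATP without oxygen. Glucose enters through carriers of the Slc2a family, hexokinase traps it by phosphorylation, phosphofructokinase commits it to the pathway, and aldolase, phosphoglycerate kinase, enolase, and pyruvate kinase carry it to pyruvate. Lactate dehydrogenase then makes lactate, while pyruvate dehydrogenase, which Pdk1 inhibits, feeds the mitochondrion. Pluripotent cells and proliferating progenitors are known for high glycolytic flux, and hypoxia-inducible factors (HIFs) and Myc are textbook activators of most of these genes.

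The promoters of the members that differed most are shown because HIFs bind a short core, ACGTG or GCGTG, that is known from several glycolytic genes. Each window holds 300 bases around a RefSeq transcript start of the mouse assembly GRCm38.p6, 5′ to 3′ on the gene's strand, and capitals mark ACGTG or GCGTG on either strand (read as CACGT or CACGC on the other) or CACGTG, the E-box that Myc binds, which holds ACGTG on both strands. Slc2a1, Hk2, and Pdk1, the members called higher in ESCs, come first, then Pfkl and Ldha, lower in some NSC groups, and Aldoa, higher in MEFs. Pdk1, Ldha, and Aldoa have further starts, and the window shown for each is one that holds a core.
Slc2a1, chr4:119108495-119108794, + strand: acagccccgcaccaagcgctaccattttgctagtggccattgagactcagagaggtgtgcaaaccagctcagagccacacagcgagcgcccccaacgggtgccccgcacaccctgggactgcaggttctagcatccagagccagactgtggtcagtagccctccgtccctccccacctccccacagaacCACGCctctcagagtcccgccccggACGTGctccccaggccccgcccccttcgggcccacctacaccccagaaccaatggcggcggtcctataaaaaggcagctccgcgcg
Hk2, chr6:82774405-82774704, - strand: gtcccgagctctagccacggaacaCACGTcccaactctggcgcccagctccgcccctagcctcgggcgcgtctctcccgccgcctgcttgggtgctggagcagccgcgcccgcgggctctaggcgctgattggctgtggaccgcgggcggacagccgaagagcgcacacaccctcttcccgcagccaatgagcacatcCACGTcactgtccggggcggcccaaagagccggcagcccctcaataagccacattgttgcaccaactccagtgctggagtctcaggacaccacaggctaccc
Pdk1, chr2:71872974-71873273, + strand: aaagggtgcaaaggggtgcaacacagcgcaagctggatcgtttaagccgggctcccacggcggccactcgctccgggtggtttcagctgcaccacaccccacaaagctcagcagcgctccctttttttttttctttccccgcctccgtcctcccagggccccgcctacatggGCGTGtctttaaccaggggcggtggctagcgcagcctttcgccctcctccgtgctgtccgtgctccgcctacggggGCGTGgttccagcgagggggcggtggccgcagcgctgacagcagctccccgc
Pfkl, chr10:78009758-78010057, - strand: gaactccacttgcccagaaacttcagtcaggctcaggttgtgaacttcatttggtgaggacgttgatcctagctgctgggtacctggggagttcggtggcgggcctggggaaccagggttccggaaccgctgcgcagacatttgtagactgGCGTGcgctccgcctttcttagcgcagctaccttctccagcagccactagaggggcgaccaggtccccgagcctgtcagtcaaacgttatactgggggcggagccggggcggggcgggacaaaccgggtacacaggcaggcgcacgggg
Ldha, chr7:46845554-46845853, + strand: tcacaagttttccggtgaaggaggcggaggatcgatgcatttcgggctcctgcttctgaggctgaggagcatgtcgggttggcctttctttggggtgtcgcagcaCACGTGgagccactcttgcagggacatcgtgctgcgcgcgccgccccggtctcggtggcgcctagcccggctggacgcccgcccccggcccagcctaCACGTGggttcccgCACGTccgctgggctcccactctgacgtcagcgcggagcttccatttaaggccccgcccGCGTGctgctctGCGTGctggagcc
Aldoa, chr7:126799205-126799504, - strand: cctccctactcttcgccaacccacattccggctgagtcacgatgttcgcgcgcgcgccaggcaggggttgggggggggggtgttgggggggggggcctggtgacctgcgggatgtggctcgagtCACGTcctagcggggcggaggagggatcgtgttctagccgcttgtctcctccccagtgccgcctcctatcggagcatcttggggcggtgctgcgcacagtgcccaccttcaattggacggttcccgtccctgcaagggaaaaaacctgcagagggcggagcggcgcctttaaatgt
The Ldha window held 5 matches to ACGTG and 2 to GCGTG. Its 2 E-boxes are among these 5, each counted on both strands. The Hk2 window held 2 matches to ACGTG. Slc2a1 had 1 match to each form of the core, Pdk1 had 2 to GCGTG, Pfkl had 1 to GCGTG, and Aldoa had 1 to ACGTG. All 10 genes on the list matched RefSeq promoters, with 18 windows. At least 1 core stood in 14 of these windows, against 43.8% of 32851 mouse windows of the same length. Some windows of Aldoa and of Eno1 overlap and share their matches, so the 14 are not separate. Every gene had such a window, but some genes have several windows, and no share by gene was computed. A match to 5 letters is frequent by itself, as ACGTG stood in 19.6% of all windows and GCGTG in 32.4%, and it does not show binding.

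Signals are given on a log2 scale after quantile normalization, so that 1 unit is a 2-fold change, and the level that corresponds to a detection p of 0.05 was 7.7 in the deposited values. Beyond a rank by mean signal, levels of different probes were not compared with each other. By that rank, 0.9% of all genes were brighter than Pkm and 15.9% brighter than Slc2a1, with Hk2, Pfkl, Aldoa, and Ldha between. For Pdk1 and Hk1 the shares were 65.5% and 76.7%. The shares of all genes called, given below, cover genes of every brightness and were not matched to the members. A gene was called where limma gave a Benjamini-Hochberg adjusted p under 0.05 over all 12251 probes kept and the change was over 2-fold. Whether the 2 arrays of a group had separate cultures as their source is not stated, so a p-value here reflects only how far such arrays differ, and this spread may be technical. Replicate arrays correlated at 0.989 in iPS-cNSCs to 0.998 in MEFs. NSC, pluripotency, and fibroblast markers had their highest summed signal in the groups they name. On both arrays of every NSC group 5 of 6 NSC markers (all but Pax6) were above background. So were 6 of 6 pluripotency markers in ESCs and 8 of 8 fibroblast markers in MEFs. These counts separate the groups less, as ESCs had 4 of 6 NSC markers and iPS-NSCs #1 and NED-NSCs 3 of 6 pluripotency markers. The sex-linked gene Xist was above background only in iPS-NSCs #1, NED-NSCs, and brain-NSCs, and Eif2s3y only in MEFs. The part of this in the comparisons was not tested. Before normalization, the dimmest probe of each array had an intensity of 79.8 to 96.2 in MEFs and iPS-cNSCs, against 119 to 132 in NED-NSCs, ESCs, and brain-NSCs. Raw signals of the iPS-NSC lines could not be matched.

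Slc2a1 encodes Glut1, the widespread basal glucose carrier, and lies on chromosome 4 (GRCm38.p6, chr4:119108745-119137330). Its log2 signal was 10.43 and 10.13 in iPS-NSCs #1, 10.49 and 10.28 in iPS-NSCs #3, 11.22 and 11.23 in iPS-cNSCs, and 10.17 and 10.33 in NED-NSCs. It was 14.15 and 14.29 in ESCs, 11.87 and 11.84 in MEFs, and 11.89 and 11.60 in brain-NSCs. ESCs stood far above every other group, the arrays of MEFs and brain-NSCs overlapped, and the iPS-NSC and NED-NSC arrays were lowest and overlapped each other. The group means spanned 3.97 log2 units. In their order ESCs were apart from MEFs (limma adjusted p = 3.5e-11), brain-NSCs from iPS-cNSCs (0.0017), and iPS-cNSCs from iPS-NSCs #3 (2.3e-05), while the other neighbours were not.

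Hk1 and Hk2 encode hexokinases, Hk1 the form typical of brain and Hk2 the inducible form of muscle, embryonic, and tumour cells. Hk2 (chr6:82725025-82774454) had a log2 signal of 10.80 and 10.61 in iPS-NSCs #1, 11.73 and 11.68 in iPS-NSCs #3, 10.17 and 10.32 in iPS-cNSCs, and 11.47 and 11.52 in NED-NSCs. It was 14.29 and 14.26 in ESCs, 12.41 and 12.38 in MEFs, and 12.38 and 12.30 in brain-NSCs. ESCs were highest and iPS-cNSCs lowest, and neither overlapped another group. Hk2 spanned 4.03 log2 units between group means, the widest range of the 8 genes. MEFs and brain-NSCs were not set apart (limma adjusted p = 0.58), nor were iPS-NSCs #3 and NED-NSCs (0.074), and the other neighbours were.

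Hk1 (chr10:62268855-62379920) was dim and nearly flat, with a range of group means of 0.77. Its signal was 8.35 and 8.36 in iPS-NSCs #1, 8.13 and 8.20 in iPS-NSCs #3, 8.42 and 8.56 in iPS-cNSCs, and 8.23 on both arrays of NED-NSCs. It was 7.67 and 7.85 in ESCs, 8.28 and 8.27 in MEFs, and 8.50 and 8.55 in brain-NSCs. Of the ESC arrays only 1 of 2 was above background, and ESCs were the only group set apart from its neighbour (limma adjusted p = 0.00051). With background correction of the raw intensities by neqc, the difference between ESCs and brain-NSCs was -2.30 in place of -0.77.

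Pfkl encodes the liver-type subunit of phosphofructokinase, the committing enzyme of glycolysis. Its brighter probe (chr10:77986947-78009807 for the gene) gave 11.73 and 11.62 in iPS-NSCs #1, 11.70 and 11.68 in iPS-NSCs #3, 10.18 and 10.29 in iPS-cNSCs, and 11.01 and 10.99 in NED-NSCs. It gave 13.31 on both arrays of ESCs, 11.28 and 11.20 in MEFs, and 12.48 and 12.37 in brain-NSCs. ESCs were highest, brain-NSCs next, and iPS-cNSCs lowest, and 5 of the 6 neighbours in the order of means were set apart, all but the iPS-NSC lines (limma adjusted p = 0.93). A second Pfkl probe was not kept. Its mean deposited log2 value was highest in MEFs (8.06 and 8.17), and it lay between 7.35 and 8.07 on the other 12 arrays, 8 of which were below the background level. It was 7.81 and 7.92 in iPS-cNSCs, both above that level, and 7.57 and 8.07 in brain-NSCs. It thus did not show the lower signal of iPS-cNSCs, but it was too dim to compare the order of the groups between the probes.

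Aldoa, the aldolase of muscle and most other tissues (chr7:126795234-126800994), followed another order. Its signal was 11.32 and 11.59 in iPS-NSCs #1, 11.61 and 11.96 in iPS-NSCs #3, 12.46 and 12.35 in iPS-cNSCs, and 11.08 and 11.19 in NED-NSCs. It was 12.54 and 12.41 in ESCs, 12.66 and 12.53 in MEFs, and 11.67 and 11.41 in brain-NSCs. The groups fell into an upper set of MEFs, ESCs, and iPS-cNSCs and a lower set of the other groups, and the gap between the sets was the only one between neighbours that passed (limma adjusted p = 0.00056).

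Pgk1 encodes phosphoglycerate kinase, which makes the first ATP of the pathway, and lies on the X chromosome (chrX:106187100-106203699). Its probe was below the background level on 13 of 14 arrays, with deposited log2 values between 7.41 and 7.66, and just above it on 1 NED-NSC array (7.75). No comparison was made for it, and this says nothing of the transcript, since only 1 probe was read. Eno1, the widespread enolase, had no probe under its symbol. A probe of Eno1b, a closely related gene for which Eno1 is listed as a synonym in RefSeq, was measured and is not counted among the 8 genes. Its group means were 8.51 in iPS-NSCs #1, 8.87 in iPS-NSCs #3, 9.50 in iPS-cNSCs, 8.32 in NED-NSCs, 9.21 in ESCs, 9.54 in MEFs, and 9.01 in brain-NSCs. Whether this probe also binds the Eno1 transcript was not tested.

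Pkm, which encodes the muscle-type pyruvate kinases (chr9:59656576-59679372), varied least among the bright members, with a range of group means of 0.94. Its signal was 14.25 and 14.34 in iPS-NSCs #1, 14.62 and 14.52 in iPS-NSCs #3, 13.63 on both arrays of iPS-cNSCs, and 13.85 and 14.01 in NED-NSCs. It was 14.48 and 14.60 in ESCs, 14.18 and 14.09 in MEFs, and 14.41 and 14.53 in brain-NSCs. The chimera-derived groups were lowest: NED-NSCs were apart from MEFs (limma adjusted p = 0.047) and iPS-cNSCs from NED-NSCs (0.01). Which splice forms of Pkm the probe reads was not examined.

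Ldha encodes the lactate dehydrogenase subunit that favours lactate (chr7:46842274-46855627). Its signal was 13.72 and 13.83 in iPS-NSCs #1, 14.09 and 14.01 in iPS-NSCs #3, 13.00 and 12.84 in iPS-cNSCs, and 13.56 and 13.48 in NED-NSCs. It was 14.40 on both arrays of ESCs, 13.36 and 13.27 in MEFs, and 14.18 and 14.32 in brain-NSCs. ESCs and brain-NSCs were highest and were not set apart (limma adjusted p = 0.16), and iPS-cNSCs were lowest and apart from MEFs (0.00089). The highest signal of any member on an array was 14.62, against 15.99 for the brightest gene.

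Pdk1, the kinase that switches off pyruvate dehydrogenase (chr2:71873215-71903858), was dim in all groups but ESCs. Its signal was 8.11 and 8.07 in iPS-NSCs #1, 8.06 on both arrays of iPS-NSCs #3, 7.95 and 8.07 in iPS-cNSCs, and 8.02 and 8.25 in NED-NSCs. It was 10.99 and 11.30 in ESCs, 8.49 and 8.41 in MEFs, and 8.75 and 9.16 in brain-NSCs. ESCs were apart from brain-NSCs, brain-NSCs from MEFs (limma adjusted p = 0.0024), and MEFs from NED-NSCs (0.041). NED-NSCs, both iPS-NSC lines, and iPS-cNSCs lay close to background, and the neighbours among these 4 groups were not set apart. Over the 8 genes, 23 of 48 pairs of neighbours were set apart at adjusted p alone, where 27.1% of neighbours were over all genes.

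**Figure D1:**
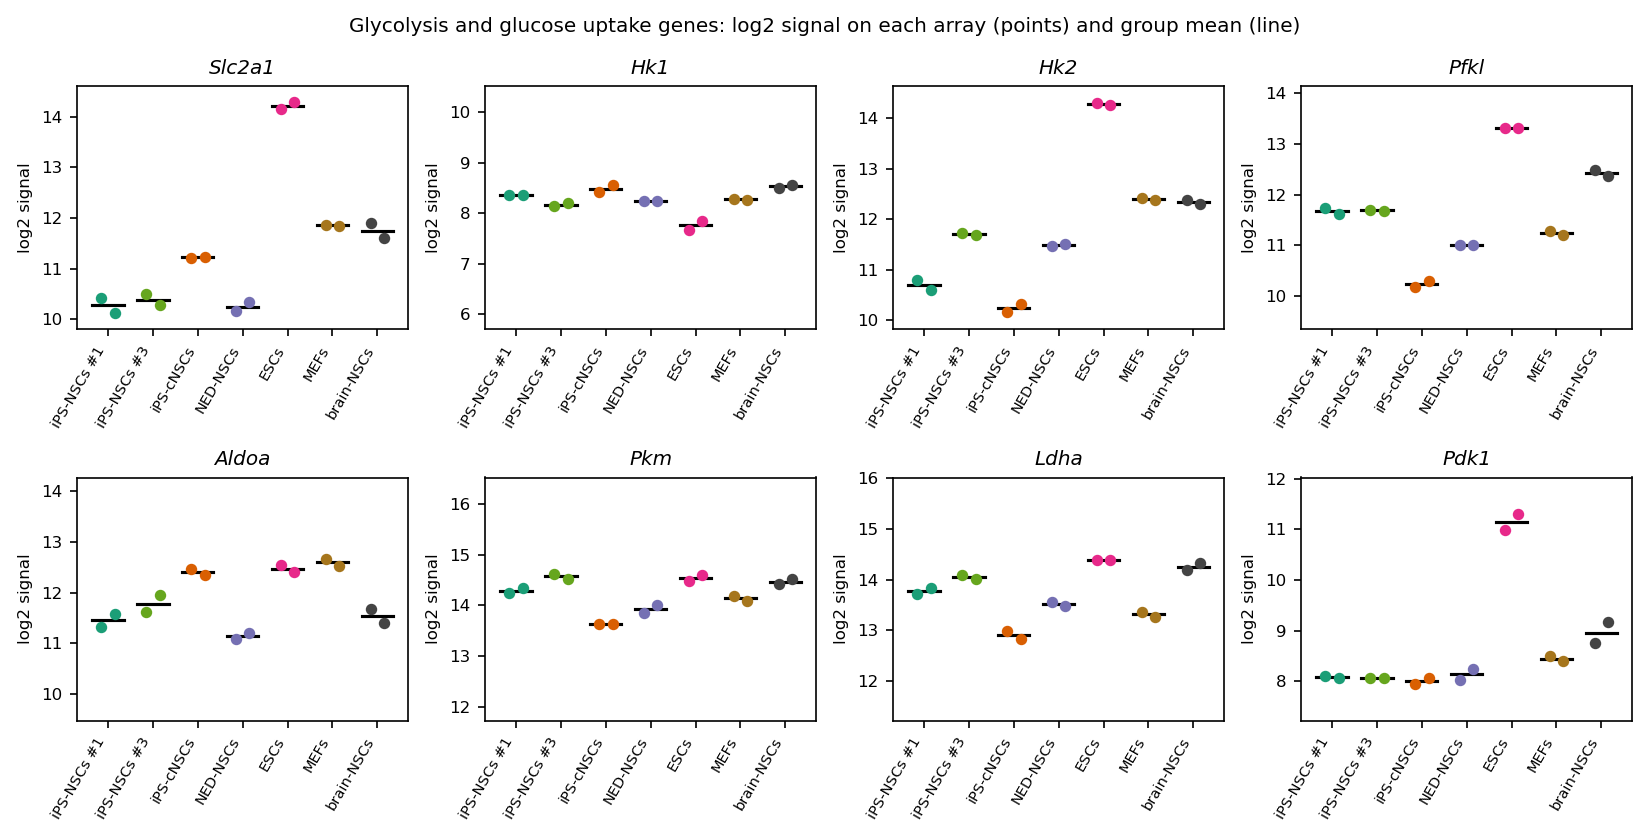
Log2 signal of the 8 measured genes (vertical axis, the same span of 4.8 log2 units in each panel) on the 2 arrays of each of the 7 groups (points), with the group mean as a line. ESCs stand highest for Slc2a1 (14.15 and 14.29), Hk2, Pfkl, and Pdk1, and iPS-cNSCs are lowest for Hk2, Pfkl, Pkm, and Ldha, while Hk1 spans 0.77.

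Among the 8 genes, Pfkl and Ldha had the most similar profiles over the 7 group means (r = 0.94), with Slc2a1 and Pdk1 (0.94) and Pkm and Ldha (0.93) close behind. Aldoa was nearly unrelated to Pfkl (0.04) and Pkm (-0.09), and Hk1 ran against Hk2 (-0.76). These are descriptions over 7 points in which ESCs are often extreme. Outside the list, the genes with the profile most like that of a member, among those whose means spanned over 1 unit, were Ppip5k2 (r = 0.991) and Poldip3 (0.989) for Slc2a1 and Ippk (0.992) and Tut1 (0.987) for Hk2. They were Mnat1 (0.989) and B9d1 (0.985) for Pfkl, Rrp9 (0.991) and Phf11d (0.99) for Pdk1, and Socs4 (0.979) and Exosc1 (0.974) for Ldha. For Aldoa they were Abce1 (0.972) and Aars (0.968), for Pkm Ccdc86 and Hprt (0.952 each), and for Hk1 Lxn (0.986) and Pip4p2 (0.983). Between 7 genes (for Pkm) and 289 (for Pdk1) had an r over 0.9.

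In ESCs the glucose carrier, the inducible hexokinase, and the pyruvate dehydrogenase kinase were all higher than in brain-NSCs. Slc2a1 was 5.57-fold higher (log2 change 2.48 ± 0.12, SE; limma adjusted p = 3.1e-11), Pdk1 4.57-fold (2.19 ± 0.13; 3.9e-10), and Hk2 3.82-fold (1.93 ± 0.09; 1.6e-11). These 3 of 8 genes were called and none was lower, against 20.5% of all genes called (9.26% higher and 11.3% lower). Aldoa (0.93) and Pfkl (0.89) were higher and Hk1 (-0.77) lower at adjusted p alone, within the 2-fold limit, which made 6 of 8 genes past the adjusted p, where 68.2% of all genes were. The ESC and brain-NSC arrays overlapped for Pkm (0.07, 95% interval -0.12 to 0.26), and the interval for Ldha was -0.04 to 0.34. After neqc Hk1 (-2.30) was called lower as well. The median change was 0.91 over the 8 genes and 0.04 over all genes. ESCs were derived with MEF feeder layers, and 4 of 8 fibroblast markers were above background on both ESC arrays, with a summed linear signal of 2197 to 2202, against 1418 to 1424 in brain-NSCs and 75851 to 77804 in MEFs. Their part in these changes was not tested. In bulk RNA of this kind, fewer cells of a type and less RNA per cell cannot be told apart.

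In iPS-cNSCs 3 of 8 genes were lower than in brain-NSCs and none was higher, against 6.29% of all genes called (3.79% higher and 2.5% lower). Pfkl was 4.56-fold lower (log2 change -2.19 ± 0.08, SE; limma adjusted p = 1.5e-11), Hk2 4.27-fold (-2.09 ± 0.09; 4.4e-11), and Ldha 2.52-fold (-1.33 ± 0.09; 9.8e-09). At adjusted p alone Pdk1 (-0.95), Pkm (-0.84), and Slc2a1 (-0.52) were lower as well and Aldoa was higher (0.87), while Hk1 did not pass (-0.04, 95% interval -0.22 to 0.14). In all 7 of 8 genes passed the adjusted p alone, where 57.1% of all genes did. Pdk1 was at -1.78 after neqc and would then be called. The median was -0.89 over the 8 genes and -0.04 over all genes. When the raw intensities were scaled to a common median over all probes, which put the median of all genes at 0.56, Aldoa was at 1.55 and called higher, and Pfkl (-1.38) and Hk2 (-1.30) were smaller but still called. Ldha was at -0.74 and no longer called, and Slc2a1 turned to 0.23. Relative to that median Ldha and Slc2a1 stood at -1.29 and -0.32. The summed linear signal of 6 astrocyte markers was 67531 to 69409.5 in iPS-cNSCs, against 35532 to 36028 in brain-NSCs, with 5 of 6 above background on both iPS-cNSC arrays and Gfap not above it. The part of these markers and of the low raw intensities of the iPS-cNSC arrays was not tested.

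In NED-NSCs, Slc2a1 was 2.82-fold lower than in brain-NSCs (log2 change -1.49 ± 0.12, SE; limma adjusted p = 9.2e-08) and Pfkl 2.68-fold lower (-1.42 ± 0.08; 2.3e-09). These were 2 of 8 genes, both lower, against 4.29% of all genes called (2.59% higher and 1.7% lower). All 8 genes had a negative change and passed the adjusted p alone, where 38.7% of all genes did. Hk2 (-0.84), Pdk1 (-0.82), Ldha (-0.73), Pkm (-0.54), Aldoa (-0.40), and Hk1 (-0.29) stayed within 2-fold. Hk2 (-1.10 and -1.02) and Ldha (-1.09 and -1.00) were called lower when raw intensities were scaled to a common median over all probes or over the kept probes, and Pdk1 (-1.47) was after neqc. The median was -0.77 over the 8 genes and -0.01 over all genes. All these comparisons share the 2 brain-NSC arrays, so their values are not independent of each other. Of the cell type markers measured, 1 of 4 for neurons and 1 of 2 for oligodendrocytes were called higher in NED-NSCs than in brain-NSCs. Called lower were 1 of 3 for astrocytes and 1 of 5 for NSCs. The summed linear signal of 6 astrocyte markers went the other way, at 45987.5 to 51309.8 in NED-NSCs, against 35532 to 36028 in brain-NSCs. The part of these markers was not tested.

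With both iPS-NSC lines averaged, Slc2a1 was 2.66-fold lower in iPS-NSCs than in brain-NSCs (log2 change -1.41 ± 0.10, SE; limma adjusted p = 2.1e-08) and Hk2 2.20-fold lower (-1.14 ± 0.08; 7.5e-09). These 2 of 8 genes were called, against 4.88% of all genes (2.62% higher and 2.26% lower). Pdk1 (-0.88), Pfkl (-0.74), Ldha (-0.34), and Hk1 (-0.27) were lower at adjusted p alone, so that 6 of 8 genes passed it, where 46.7% of all genes did, and the arrays of Aldoa (0.08) and Pkm (-0.04) overlapped those of brain-NSCs. The lines shared the change of Slc2a1, at -1.47 in #1 and -1.36 in #3. Hk2 was at -1.64 in #1 and at -0.63 in #3. In #1 both genes were called, where 4.98% of all genes were (2.98% higher and 2.01% lower), and in #3 only Slc2a1, where 6.69% were (3.38% higher and 3.32% lower). The median change was -0.54 over the 8 genes and -0.01 over all genes.

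Hk2 was the only member called between the lines themselves. It was 2.01-fold lower in iPS-NSCs #1 than in iPS-NSCs #3 (log2 change -1.00 ± 0.09, SE; limma adjusted p = 3.4e-07), where 3.06% of all genes were called (1.9% higher and 1.16% lower). This change lies at the 2-fold limit, and it was -0.98 without iPS-NSCs #3 replicate 1 and -0.91 without iPS-NSCs #1 replicate 2, with no member called. Pkm (-0.28) and Ldha (-0.27) were lower in #1 at adjusted p alone, 3 of 8 genes with Hk2, where 30.2% of all genes passed, and the arrays of Slc2a1 and Pfkl overlapped between the lines. Thy1, on the list of fibroblast markers, was 4.58 log2 units higher in #1 (limma adjusted p = 2.1e-14). The summed linear signal of the 8 markers on that list was 7544 to 7900.2 in #1, against 1492 to 1547 in #3. Col1a1, Col3a1, Postn, Lum, and Pdgfrb were not above background in either line. The part of Thy1 in the Hk2 difference was not tested.

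In MEFs Aldoa was 2.08-fold higher than in brain-NSCs (log2 change 1.05 ± 0.13, SE; limma adjusted p = 1.6e-06) and Pfkl 2.27-fold lower (-1.18 ± 0.08; 2.5e-09). These were 2 of 8 genes, against 24.1% of all genes called (11.9% higher and 12.1% lower), so the share of members was near that of all genes. Slc2a1 (0.11, 95% interval -0.14 to 0.36) and Hk2 (0.06, -0.13 to 0.24) did not pass. Ldha (-0.93), Pdk1 (-0.51), Pkm (-0.33), and Hk1 (-0.26) were lower at adjusted p alone, which 6 of 8 genes passed, where 73.4% of all genes did. Pdk1 was at -1.02 after neqc. The median was -0.29 over the 8 genes and -0.05 over all genes. Aldoa was at 0.99 without MEFs replicate 1 and at 0.92 without brain-NSCs replicate 2, which left 1 call, Pfkl. When raw intensities were scaled to a common median over all probes, which put the median of all genes at 0.26, Pfkl was at -0.57 and no longer called, which left Aldoa as the call, and Pkm turned to 0.35.

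**Figure D2:**
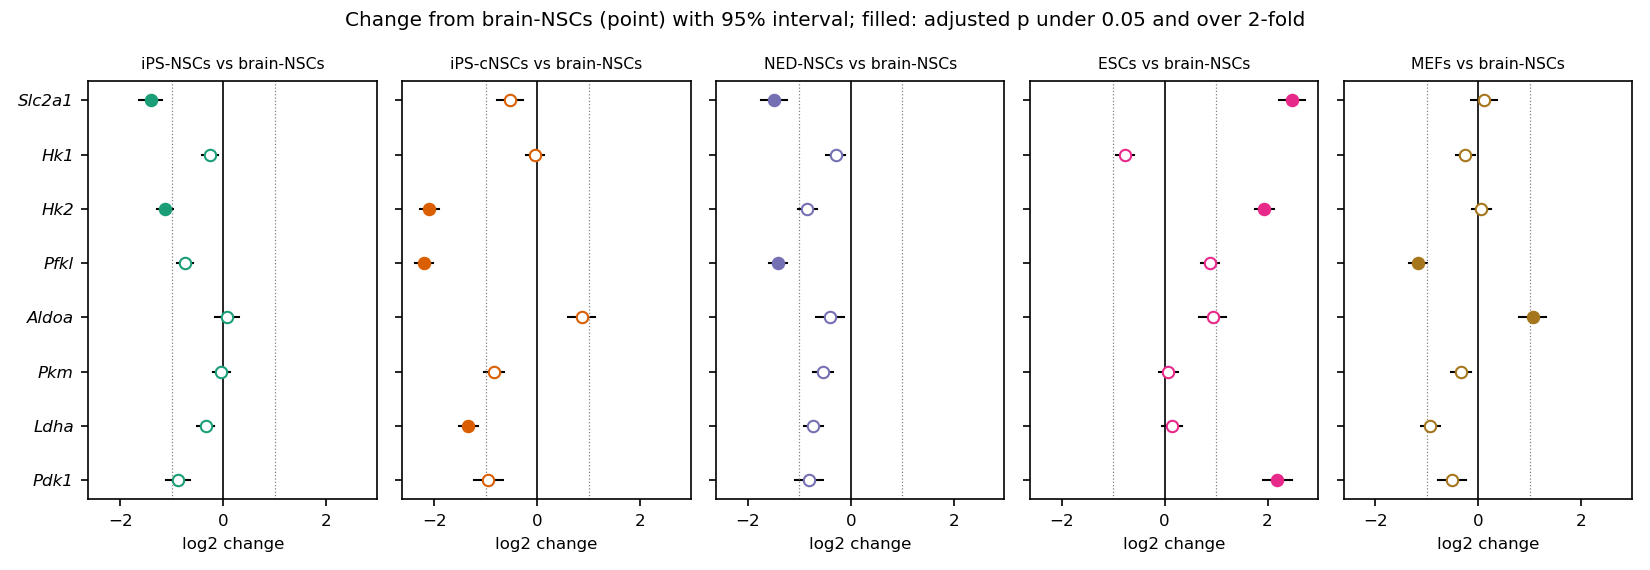
Log2 change of each of the 8 genes from brain-NSCs (horizontal axis; points) with its 95% interval (lines) in 5 comparisons, filled where the adjusted p was under 0.05 and the change over 2-fold. Slc2a1, Hk2, and Pdk1 lie to the right in ESCs (2.48, 1.93, and 2.19), and Pfkl and Hk2 lie farthest to the left in iPS-cNSCs (-2.19 and -2.09).

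The NSCs from iPSCs were also set against each other by route, after differentiation in the chimeric brain or in culture. Only iPS-cNSCs are described as selected by neomycin, which cannot be told apart from route. The paper reports silenced reprogramming transgenes in iPS-cNSCs and describes iPS-NSCs with re-expressed transgenes as a positive control. Whether these are lines #1 and #3 is not stated, and their part was not tested. No other scaling could be run, as raw signals of the iPS-NSC lines were not matched. In iPS-cNSCs Pfkl was 2.73-fold lower than in iPS-NSCs, both lines averaged (log2 change -1.45 ± 0.07, SE; limma adjusted p = 1.4e-10), the only call among the 8 genes, where 8.03% of all genes were called (4.94% higher and 3.09% lower). Ldha (-1.00, 1.99-fold) and Hk2 (-0.96) lay just inside the 2-fold limit, and Pkm was at -0.80. Slc2a1 (0.89), Aldoa (0.79), and Hk1 (0.23) were higher at adjusted p alone, which 7 of 8 genes passed, where 64% of all genes did. Pdk1 did not pass (-0.06, 95% interval -0.30 to 0.18). The median was -0.43 over the 8 genes and -0.05 over all genes. Ldha joined Pfkl without iPS-cNSCs replicate 1, iPS-NSCs #3 replicate 2, or iPS-NSCs #1 replicate 1, and Hk2 joined it without iPS-cNSCs replicate 2 or iPS-NSCs #1 replicate 2, which gave 2 calls each time. Against line #3 alone, 3 genes were called, Hk2, Pfkl, and Ldha. For Hk2, line #1 stood only 0.46 above iPS-cNSCs (limma adjusted p = 0.00043). The summed linear signal of 6 astrocyte markers was 67531 to 69409.5 in iPS-cNSCs, against 26775 to 29342 in #1 and 34036 to 35109 in #3. Of the markers measured, 1 of 3 for astrocytes, 1 of 4 for neurons, and 2 of 5 for NSCs were called higher in iPS-cNSCs, and 1 of 3 for fibroblasts lower. Their part was not tested.

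iPS-cNSCs and NED-NSCs both came from chimeric brain and differ in whether the cells descend from iPSCs or from the host embryo. They also differ in strain background, in transgenes, and in selection by neomycin, which only iPS-cNSCs had. These cannot be told apart from descent. Aldoa was 2.41-fold higher in iPS-cNSCs (log2 change 1.27 ± 0.13, SE; limma adjusted p = 9.1e-07) and Hk2 2.38-fold lower (-1.25 ± 0.09; 2.1e-08), 2 of 8 genes, against 5.48% of all genes called (3.19% higher and 2.29% lower). The Eno1b probe was also 2.28-fold higher in iPS-cNSCs (1.19 ± 0.11; adjusted p = 3.7e-07 by limma). Slc2a1 (0.97) was higher and Pfkl (-0.77), Ldha (-0.61), and Pkm (-0.30) were lower at adjusted p alone. With Hk1 (0.25), 7 of 8 genes passed it, where 53.8% of all genes did. Slc2a1 was called higher under each of the other scalings, at 1.94 with raw intensities scaled to a common median over all probes, 1.07 with the kept probes, and 1.07 after neqc. The all-probe scaling put the median of all genes at 0.71 and Aldoa at 2.19, Hk2 was no longer called at -0.20, and Pfkl, Ldha, and Pkm turned to 0.28, 0.35, and 0.66. Relative to that median Hk2, Pfkl, Ldha, and Pkm were at -0.90, -0.42, -0.35, and -0.04. The raw intensity minimum of the iPS-cNSC arrays (83.7 and 84.4) was below that of the NED-NSC arrays (126 and 132), and its part was not tested.

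**Figure D3:**
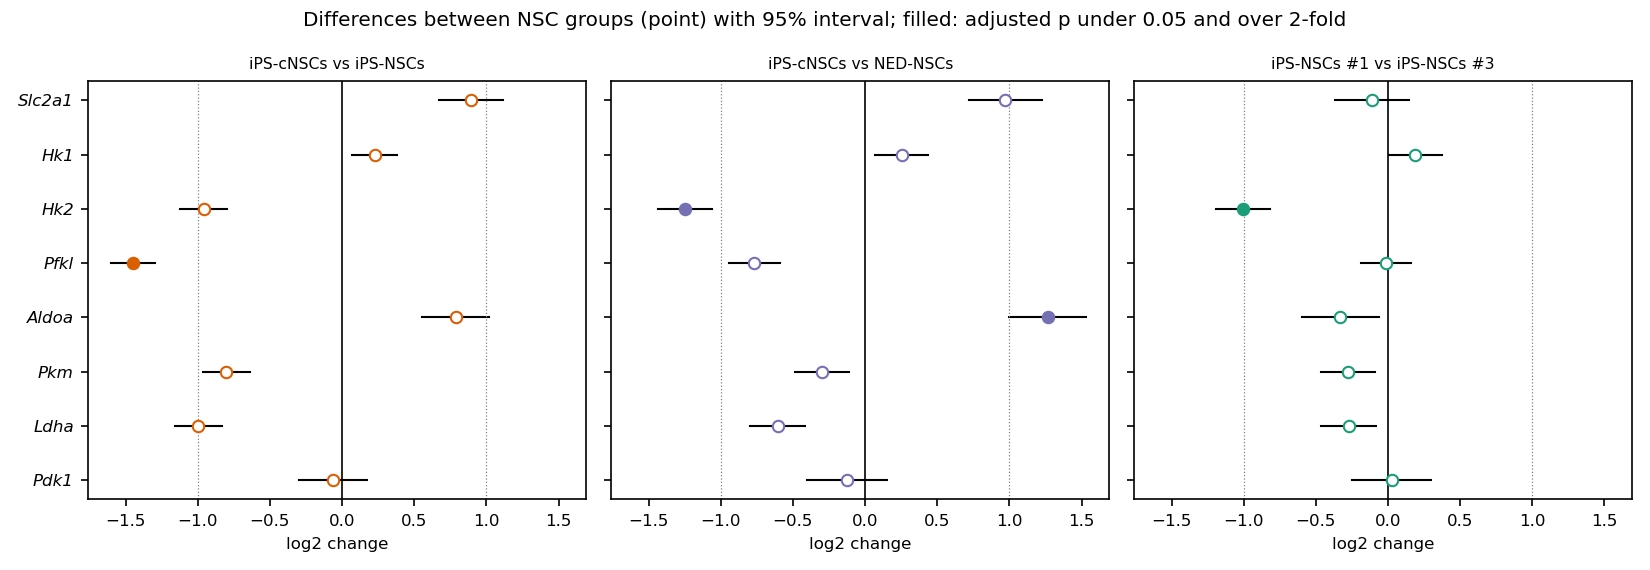
Log2 change of each of the 8 genes (horizontal axis; points with 95% intervals) for iPS-cNSCs against iPS-NSCs, iPS-cNSCs against NED-NSCs, and iPS-NSCs #1 against iPS-NSCs #3, filled where called. Pfkl (-1.45) is called in the left panel, Hk2 (-1.25) and Aldoa (1.27) in the middle panel, and Hk2 (-1.00) in the right panel.

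Other glucose carriers and glycolytic enzymes, 26 genes of which 14 were measured, included other isoforms of the steps that the members carry out. Values in parentheses are log2 changes for this and the other lists. Slc2a3, which encodes the high-affinity neuronal and embryonic carrier Glut3, was 4.93 log2 units higher in ESCs (14.34, against 9.41 in brain-NSCs; limma adjusted p = 3.6e-15) and was lower in NED-NSCs (-1.27). Pfkp, the platelet-type phosphofructokinase subunit, was higher in iPS-cNSCs (1.34), ESCs (3.19), and MEFs (1.41) than in brain-NSCs, and iPS-cNSCs were also above iPS-NSCs (1.59, with 3 of 4 iPS-NSC arrays above background). In iPS-cNSCs and MEFs this stands beside the lower Pfkl described above. In ESCs the muscle-type subunit Pfkm was lower (-1.16). Aldoc, the brain-type aldolase, known as an astrocyte-enriched gene, was lower in ESCs (-3.79) and MEFs (-5.75, with 1 of 2 MEF arrays above background).

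The tissue-restricted enolases were called in 3 comparisons with brain-NSCs. Eno2, the neuronal enolase, was higher in NED-NSCs (1.39), ESCs (2.04), and MEFs (3.19), and Eno3, the muscle enolase, was higher in ESCs (1.82) and MEFs (3.03), although only 1 of the 2 arrays of brain-NSCs detected it. Pfkfb4, which makes the phosphofructokinase activator fructose 2,6-bisphosphate, was higher (1.85) and triosephosphate isomerase Tpi1 lower (-1.21) in MEFs. Adpgk, an ADP-dependent glucokinase, was lower in iPS-NSCs #1 than in #3 (-1.02). In all, 0 of the 14 were called in iPS-NSCs against brain-NSCs, 1 in iPS-cNSCs (higher), 2 in NED-NSCs (1 higher and 1 lower), and 6 each in ESCs and MEFs (4 higher and 2 lower in each). The share of all genes called was 4.88% in iPS-NSCs, 6.29% in iPS-cNSCs, 4.29% in NED-NSCs, 20.5% in ESCs, and 24.1% in MEFs. Their median was -0.04 in iPS-NSCs, -0.08 in iPS-cNSCs, 0.07 in NED-NSCs, 0.51 in ESCs, and 0.15 in MEFs, against -0.05 to 0.04 over all genes.

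Beyond pyruvate, 9 of 19 genes for lactate and pyruvate handling were measured. Against brain-NSCs, 1 of the 9 was called in each of iPS-cNSCs (where 6.29% of all genes were), NED-NSCs (4.29%), and ESCs (20.5%). Pdp2, a phosphatase that reverses the action of the Pdk kinases on pyruvate dehydrogenase, was higher than in brain-NSCs in iPS-cNSCs (1.13) and NED-NSCs (1.08). Pdhb, a subunit of pyruvate dehydrogenase, was higher in ESCs (1.17), beside the higher Pdk1. Dld, its dihydrolipoamide dehydrogenase, was higher in iPS-cNSCs, by 1.49 over iPS-NSCs (limma adjusted p = 4.5e-06) and 1.34 over NED-NSCs (9.3e-05). No gene of this list was called in iPS-NSCs or MEFs against brain-NSCs or between the iPS-NSC lines, and none was lower in any comparison.

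**Figure D4:**
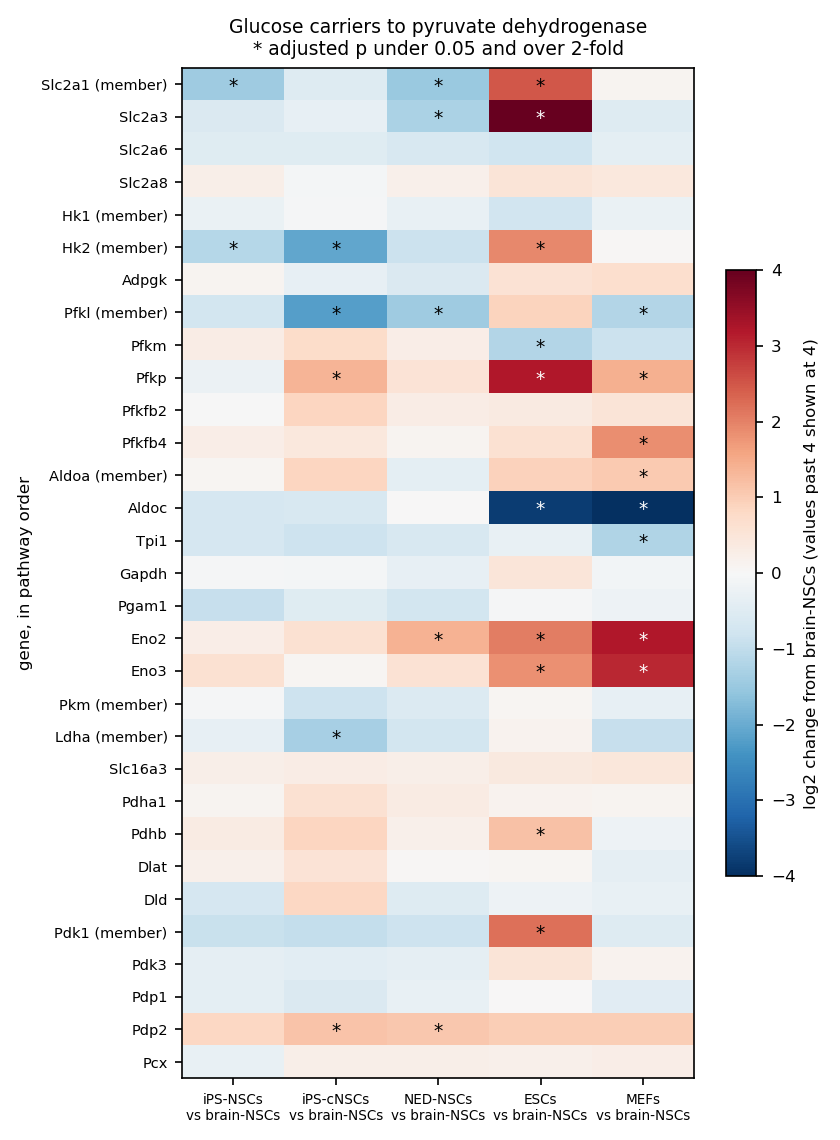
Log2 change from brain-NSCs (colour, red higher and blue lower) of the 31 measured genes from glucose carriers to pyruvate dehydrogenase, in pathway order down the page and 5 comparisons across, with an asterisk where called. Slc2a3 (4.93) and Pfkp (3.19) in ESCs and Eno2 (3.19) and Eno3 (3.03) in MEFs are the deepest red, and Aldoc (-3.79 in ESCs, -5.75 in MEFs) the deepest blue.

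Single transketolase and glycogen genes, of pathways that branch from glycolysis, differed between iPS-cNSCs and iPS-NSCs. Tkt, which encodes transketolase of the pentose phosphate pathway, was higher than in brain-NSCs in iPS-cNSCs (1.60) and MEFs (1.44), and the difference between iPS-cNSCs and iPS-NSCs was 1.20. It was the only gene called of 4 measured from 7. Of 7 measured genes for gluconeogenesis and glycogen, from 16, 3 were above the iPS-NSC level in iPS-cNSCs, where 4.94% of all genes were called higher: phosphoglucomutase Pgm1 (1.44), glycogenin Gyg (1.31), and brain glycogen phosphorylase Pygb (1.08). Pygb (1.25) and Pgm1 (1.02) were higher in iPS-cNSCs than in NED-NSCs, where 3.19% of all genes were called higher. Against brain-NSCs, Pgm1 was lower in iPS-NSCs (-1.06), Pygb higher in MEFs (1.06), and Gyg (-1.72) and Ugp2, the source of UDP-glucose, (-1.18) lower in ESCs. The share of all genes called against brain-NSCs was 4.88% in iPS-NSCs, 6.29% in iPS-cNSCs, 20.5% in ESCs, and 24.1% in MEFs.

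Other textbook HIF genes had calls in each comparison with brain-NSCs. The direction of a call has no single meaning here, as the list holds HIF subunits, regulators, and targets. Of 18 measured genes from a list of 24 HIF subunits, regulators, and targets, 1 was higher and 1 lower in iPS-NSCs than in brain-NSCs, 0 and 3 in iPS-cNSCs, 0 and 1 in NED-NSCs, 2 and 3 in ESCs, and 4 and 2 in MEFs. The shares of all genes called higher and lower were 2.62% and 2.26% in iPS-NSCs, 3.79% and 2.5% in iPS-cNSCs, 2.59% and 1.7% in NED-NSCs, 9.26% and 11.3% in ESCs, and 11.9% and 12.1% in MEFs. In ESCs, where Slc2a1, Hk2, and Pdk1 were higher, the angiogenic factor Vegfa (-1.01), the collagen-modifying enzyme Plod2 (-1.39), and the peptide hormone gene Adm (-1.14) were lower, while the stress-responsive gene Ndrg1 (1.37, detected on 1 of 2 brain-NSC arrays) and the histone demethylase gene Kdm3a (1.32) were higher. In iPS-cNSCs, Plod2 (-1.46), the HIF prolyl hydroxylase gene Egln3 (-1.42), and Vegfa (-1.21) were lower. Egln3 was lower in iPS-NSCs (-1.39) and Vegfa in NED-NSCs (-1.20), beside the lower Slc2a1 of both groups, while Ndrg1 was higher in iPS-NSCs (1.05, detected on 1 of 2 brain-NSC arrays). In MEFs the collagen prolyl hydroxylases P4ha2 (2.71) and P4ha1 (1.75) led the higher genes.

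Between NSC groups, Vhl, which marks HIFs for degradation, was higher in iPS-cNSCs when set against iPS-NSCs (1.09) and Ndrg1 at least 1.99-fold lower, with no iPS-cNSC array above background. Plod2 was lower in iPS-cNSCs than in NED-NSCs (-1.21). Adm (2.03) and Plod2 (1.08) were higher and Ndrg1 (-1.71) lower in iPS-NSCs #1 than in #3, while Hk2 was lower. Of 14 regulators of glycolytic genes 6 were measured, and calls were made for the energy metabolism receptor gene Esrra, lower in ESCs (-1.14), and Txnip, an inhibitor of glucose uptake, higher in MEFs (1.02, detected on 1 of 2 brain-NSC arrays). The remaining 6 comparisons had no call on this list.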

How the data were processed

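Labelled cRNA of 14 samples was hybridized to bead arrays by the authors, and GenomeStudio 2011.1 is the tool in the submitters' processing notes. Deposited intensity values and detection p-values per probe were not normalized. The deposited log2 values had been quantile normalized by the authors, with the same median on every array, and were the basis of all tests, since they cover all 14 arrays. Of the intensity columns, 10 matched a sample by name, and the other 4 with their detection columns, 8 in all, were not used. Background was set at the log2 value where the detection p-value crossed 0.05, which was 7.68 to 7.74 on the 10 matched arrays with a median of 7.7. That median and the p-value sorted 98.0% to 99.6% of probes alike. The 12251 of 25697 probes at or above it on 7 or more arrays were quantile normalized a second time, and no value moved by over 0.16. A gene was represented by its brightest kept probe.

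Group means were compared with limma 3.58.1 in R 4.3.3, with 1 mean for each of 7 groups (7 residual and 8.22 prior degrees of freedom) and without a replicate block. A group with no array above background has only a bound, and its fold was computed from the background level. The tests were checked on simulated arrays. Members, lists, and the rule for naming genes (every probe of the members, up to 3 called genes for each list and comparison, and the 2 genes most alike in profile) were chosen with earlier results of these data known. Alternatives covered the filter, the normalization, the limma settings, a local-pooled-error test of the kind the methods describe, and each array left out. Marker lists were used only to check the labels and to stand beside results. Promoter sequences and positions came from RefSeq (GRCm38.p6). Slide and scan date are not given in the sources used here.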

Additional observations from a re-analysis of the deposited data

Results flagged for a closer look

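The comparisons covered were iPS-NSCs #1 against iPS-NSCs #3, iPS-cNSCs against iPS-NSCs with both lines averaged, and iPS-cNSCs against NED-NSCs. In these, 3 of the glycolytic genes had changes from brain-NSCs that differed past both the adjusted p and the 2-fold limit. The difference itself was tested with limma. Against line #3 alone, Hk2 and Ldha were also called in iPS-cNSCs, as described above. Hk2 differed by -1.00 between iPS-NSCs #1 and iPS-NSCs #3 (adjusted p = 3.4e-07) and by -1.25 between iPS-cNSCs and NED-NSCs (2.1e-08). Pfkl differed by -1.45 between iPS-cNSCs and iPS-NSCs (1.4e-10), and Aldoa by 1.27 between iPS-cNSCs and NED-NSCs (9.1e-07). In each the brain-NSC arrays cancel, so the value is the difference between the groups named, and their arrays did not overlap.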

How the results depend on the processing

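Without the 2-fold limit, the members called against brain-NSCs were 6 of 8 in iPS-NSCs, 7 in iPS-cNSCs, 8 in NED-NSCs, 6 in ESCs, and 6 in MEFs. They were 7 each in iPS-cNSCs against iPS-NSCs and against NED-NSCs, and 3 between the iPS-NSC lines. In the same order, the share of all genes past the adjusted p was 46.7%, 57.1%, 38.7%, 68.2%, 73.4%, 64%, 53.8%, and 30.2%. With line #3 alone, 1 member was called in iPS-NSCs against brain-NSCs and 3 in iPS-cNSCs against iPS-NSCs. With the background level required on all 14 arrays, 0 were called between the lines by limma, with Hk2 at -0.998 (adjusted p = 8.0e-07). Scaling raw intensities to a common median over all probes gave 4 in NED-NSCs (Hk2 and Ldha joined) and 1 in MEFs (Aldoa). The same over the kept probes, an alternative chosen after seeing the data, gave 5 in iPS-cNSCs (with Pkm and Pdk1), 4 in NED-NSCs, and 5 in ESCs (with Pfkl and Aldoa, higher). The all-probe scaling turned the sign of 5 values: Slc2a1 in iPS-cNSCs (0.23) and Pkm in MEFs (0.35) against brain-NSCs, and Pfkl (0.28), Pkm (0.66), and Ldha (0.35) in iPS-cNSCs against NED-NSCs. It shifted the median of all genes by 0.60 in iPS-cNSCs, 0.30 in MEFs, -0.17 in ESCs, and -0.09 in NED-NSCs. The kept-probe version left these 5 values with their first sign and shifted that median by -0.19, -0.13, 0.10, and -0.01. No scaling could be run for iPS-NSCs, whose raw signal columns were not matched. Leaving out 1 array gave 2 to 3 calls in iPS-NSCs, 3 to 4 in iPS-cNSCs, 2 to 3 in NED-NSCs, 3 to 4 in ESCs, and 1 to 3 in MEFs against brain-NSCs, 1 to 2 in iPS-cNSCs against iPS-NSCs, 2 to 3 in iPS-cNSCs against NED-NSCs, and 0 to 1 between the lines. Over all alternatives, 664 member changes past the adjusted p kept direction and call, 30 gained a call, 49 lost the call or the adjusted p, and 5 turned. The 664 include alternatives that cannot move the log2 change, namely other limma settings, the replicate block, and the local-pooled-error test. The mean of kept probes is another, as each of the 8 genes had 1 kept probe. This number is thus no measure of how stable the changes are. With 2 arrays a group the spread is poorly known, and for Hk1 and Pdk1, near background, neqc gave larger changes (Hk1 -2.30 and Pdk1 2.59 in ESCs).

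Whether arrays of the same replicate number share more than that number is not stated. Their deviations correlated at -0.24 to 0.12 between groups, which cannot settle it without slide and scan date. With a replicate block the members called were 2 in iPS-NSCs, 3 in iPS-cNSCs, 2 in NED-NSCs, 3 in ESCs, and 2 in MEFs against brain-NSCs, 1 in iPS-cNSCs against iPS-NSCs, 2 against NED-NSCs, and 1 between the lines, as without it, and 22 neighbours were set apart.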
